A study of Mus musculus with 3 samples.

Results

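Genes named for the ubiquitin ligase and deubiquitinase families Usp, Trim, Rnf, Fbxo, Fbxl and Fbxw were examined for differences in 5-hydroxymethylcytosine (5hmC) between folate-deficient and normal-folate mouse embryonic stem cells (mESCs). Every region of the deposited whole-genome tables whose gene symbol opened with Usp, Trim, Rnf, Fbxo or Fbxl and a digit, or with Fbxw, was taken, and the 5 symbols Usp1, Usp29, Trim28, Trim71 and Rnf43 were left out. This gave 173 distinct regions of 19817 and 97 symbols of 9293. A single region counted for a pair of neighbouring genes, Fbxo2 and Fbxo44, so there were 174 pairs of region and gene. The choice used names alone, and a name does not make every member a ligase or a deubiquitinase. Usp6nl, for example, encodes a GTPase-activating protein for Rab5 that is named for its similarity to the amino-terminal part of USP6.

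In the study, 5hmC was mapped by hMeDIP-seq (hydroxymethylated DNA immunoprecipitation with sequencing), in which an antibody pulls down fragments that carry 5hmC. FA0 was the Sv129 cell line in folate-deficient medium (final folate 0 mg/L), and FA4 was the same line in control medium (4 mg/L). Both were kept in DMEM with fetal bovine serum and antibiotics, with no other treatment named in the labels, and the time in folate-deficient medium is not given there. There was 1 immunoprecipitated library per condition, from 1 cell line, so the differences below come without replicates. Each test on reads compares these 2 libraries and not the 2 conditions. No expression values were used here, so the labelled cell type was not checked against marker genes and the 5hmC differences were not set beside mRNA levels.

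Ubiquitin is joined to proteins by a relay of activating, conjugating and ligating enzymes, and the ligase chooses the target. Rnf and Trim proteins carry a RING domain in most cases and bring the loaded conjugating enzyme to the target, whereas Fbxo, Fbxl and Fbxw proteins are F-box subunits that give SCF (Skp1, cullin, F-box) ligases their targets. Usp proteins are proteases that take ubiquitin off again. In embryonic stem cells this system sets the lifetime of cell cycle and pluripotency proteins and adds or removes ubiquitin on histones. 5hmC is made from methylated cytosine by TET enzymes, nearly always at CpG dinucleotides.

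The tables list only regions that already differed. In all of them a G-test of the 2 normalized counts gave a p of at most 9.86e-05, and the higher count was at least 2.01 times the lower after 0.1 was added to each. A normalized count is a read count multiplied by 1 factor per library, 1.155 for FA0 and 0.866 for FA4, so whole reads could be recovered. Ratios below are FA0 over FA4 normalized counts with exact 95% intervals for counting error only, because PCR copies of a fragment are not separate molecules. Neither the ratios nor the intervals are corrected for the way regions entered the tables, and a ratio clear of 1 was therefore built in. Where a library had 0 reads, the fold is given as a bound from the observed reads against a floor of 3 reads in that library, with no allowance for the error of the observed reads. Each region was also put to a two-sided exact binomial test (the exact test) of its whole reads against 57.1% FA4 reads, the share that equal normalized counts would give, and a region passed at a p under 1e-04. The exact p uses the same reads by which a region differed enough to be listed, so a small p was likewise built in. It ranks listed regions and gives no independent support for a difference. The deposited rows hold only listed regions, so the depth of either library is unknown, and a gene with no listed region cannot be called unchanged.

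The 12 promoter regions lay nearest to the start sites of the genes, at most 1969 bp away. Of these, 5 were higher in FA0, and all 5 passed the exact test. The other 7 were higher in FA4 with 0 FA0 reads in each, and 2 of them passed. Over all promoter regions, 466 of the 595 FA0-higher and 92 of the 380 FA4-higher ones passed. In the 3 FA0-higher regions at Rnf4, at Rnf26 and at Fbxo2 and Fbxo44, where the region spanned the Fbxo44 start, the RefSeq promoter window, which runs from 250 bases before to 50 bases after a start site, lay wholly inside the region for a transcript whose start the tables also used. These windows are printed to show the CpG dinucleotides, the sites that can carry 5hmC, that the FA0-higher regions covered. The Fbxo9 stretch is the 155 bases of a promoter window that lay inside an FA4-higher region. That window belongs to another start, 409 bp from the assigned one, whose own window lay 254 bp outside the region. The Usp30 window lay 142 bp outside its FA4-higher region. All are RefSeq sequence of build GRCm38.p6, 5′ to 3′ on the strand of the gene, with each CG in capitals.
Rnf4, chr5:34336130-34336429, plus strand: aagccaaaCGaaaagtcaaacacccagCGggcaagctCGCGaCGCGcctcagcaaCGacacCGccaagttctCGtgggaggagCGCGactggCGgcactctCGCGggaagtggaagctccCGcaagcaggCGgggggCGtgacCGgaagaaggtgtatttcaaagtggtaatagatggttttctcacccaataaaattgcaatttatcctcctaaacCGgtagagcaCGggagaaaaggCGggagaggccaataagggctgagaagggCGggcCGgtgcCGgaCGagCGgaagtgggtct
Rnf26, chr9:44113002-44113301, minus strand: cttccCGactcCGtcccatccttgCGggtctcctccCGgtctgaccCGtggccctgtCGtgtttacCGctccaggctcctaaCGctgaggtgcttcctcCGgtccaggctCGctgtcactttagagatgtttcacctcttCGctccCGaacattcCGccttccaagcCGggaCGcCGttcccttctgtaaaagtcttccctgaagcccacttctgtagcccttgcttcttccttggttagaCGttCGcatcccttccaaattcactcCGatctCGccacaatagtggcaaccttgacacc
Fbxo44, chr4:148160045-148160344, minus strand: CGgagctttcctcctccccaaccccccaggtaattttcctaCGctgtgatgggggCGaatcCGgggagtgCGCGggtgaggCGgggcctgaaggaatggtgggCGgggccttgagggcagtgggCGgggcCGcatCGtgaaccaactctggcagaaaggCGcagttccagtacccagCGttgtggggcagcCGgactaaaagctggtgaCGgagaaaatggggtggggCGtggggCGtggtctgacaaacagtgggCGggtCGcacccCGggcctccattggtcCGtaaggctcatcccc
Fbxo9, chr9:78109161-78109315, minus strand: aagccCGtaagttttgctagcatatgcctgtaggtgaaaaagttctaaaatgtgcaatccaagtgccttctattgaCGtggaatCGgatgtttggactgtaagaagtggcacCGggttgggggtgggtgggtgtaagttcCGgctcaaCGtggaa
Usp30, chr5:114100083-114100382, plus strand: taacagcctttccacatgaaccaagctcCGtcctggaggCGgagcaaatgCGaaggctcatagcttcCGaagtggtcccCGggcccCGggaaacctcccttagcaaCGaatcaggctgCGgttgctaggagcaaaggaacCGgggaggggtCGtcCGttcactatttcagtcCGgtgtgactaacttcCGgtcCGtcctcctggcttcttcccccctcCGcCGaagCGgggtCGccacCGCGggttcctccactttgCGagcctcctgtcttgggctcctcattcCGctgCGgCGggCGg

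The Rnf4 window held 26 CG, the Rnf26 window 20, the Fbxo44 window 21 and the Usp30 window 25. The Fbxo9 stretch held 6 CG in its 155 bases. CG reads the same on both strands. Windows of the same length at all 32851 RefSeq start sites of the table held a median of 7, and 26.5% of them held at least 20. The 105 windows of the 82 member symbols that matched the table held a median of 21. These sets were not matched by type of gene, so the member median is the closer comparison for the printed windows. The 26 CG of the Rnf4 window lay inside an FA0-higher region, whereas the 25 CG of Usp30 lay beside its FA4-higher region and not in it. Apart from the Fbxo9 stretch, the matched windows at FA4-higher promoter regions lay 102 to 1356 bp outside them. The farthest, that of Fbxo30, held 47 CG. At FA0-higher promoter regions the Trim67 and Rnf126 windows also lay outside, by 792 and 1122 bp, and another Fbxo44 window by 207 bp. The Fbxo2 window lay partly inside, with 123 of its bases and 4 of its 21 CG. A count of CG says nothing about which of them carried 5hmC.

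Rnf4, which encodes a ligase that recognises SUMO-modified proteins, had 26 FA0 reads and 3 FA4 reads in its promoter region (chr5:34335561-34336980, mm10), a ratio of 11.6 (3.54 to 59.6, exact p = 2.91e-07). This was the smallest p of the promoter regions. Fbxo2, whose product binds N-glycans of misfolded glycoproteins, and its relative Fbxo44 run in opposite directions from neighbouring starts. Their common region (chr4:148159281-148160540) had 33 FA0 reads and 12 FA4 reads, a ratio of 3.67 (1.84 to 7.80, exact p = 5.44e-05), so it was the promoter region with the most reads and the only FA0-higher one with more than 3 FA4 reads. Trim67, a TRIM gene known from neurons, had 20 FA0 reads and 2 FA4 reads at chr8:124793861-124794620 (ratio 13.3, 3.24 to 118). Rnf126, which acts in the quality control of cytosolic proteins, had 17 FA0 reads and 2 FA4 reads (ratio 11.3, 2.69 to 101). Rnf26, a ligase of the endoplasmic reticulum membrane, had 12 FA0 reads and 0 FA4 reads at chr9:44112501-44113360, at least 5.33-fold higher in FA0 (exact p = 3.84e-05). In these regions, which were listed for a lower FA4 count, the FA4 library was nearly empty apart from the region of Fbxo2 and Fbxo44.

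In the other direction, Usp30, which encodes a deubiquitinase of the outer mitochondrial membrane that opposes mitophagy, had 0 FA0 reads and 25 FA4 reads in its promoter region (chr5:114098801-114099940), at least 6.25-fold lower in FA0 (exact p = 1.2e-06). Fbxo30, an F-box gene known from muscle wasting, had 0 FA0 reads and 18 FA4 reads in its promoter region (chr10:11278741-11279980), at least 4.5-fold lower in FA0 (exact p = 4.81e-05). These were the 2 FA4-higher promoter regions that passed. The remaining 5 also had 0 FA0 reads, and their p did not pass the threshold. Rnf182, which encodes a membrane-bound RING ligase, had 16 FA4 reads. Fbxo9, which acts in the turnover of proteins of the mTOR pathway, and Rnf121, a RING ligase of the secretory pathway, had 14 FA4 reads each. Fbxo43, also called Emi2, an inhibitor of the anaphase-promoting complex in the egg, and Rnf32, a RING gene, had 13 FA4 reads each, the lowest FA4 count against 0 that any listed region had. With 0 against 13 the exact p was 0.000994, so the last of these are weak differences by this test.

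**Figure D1:**
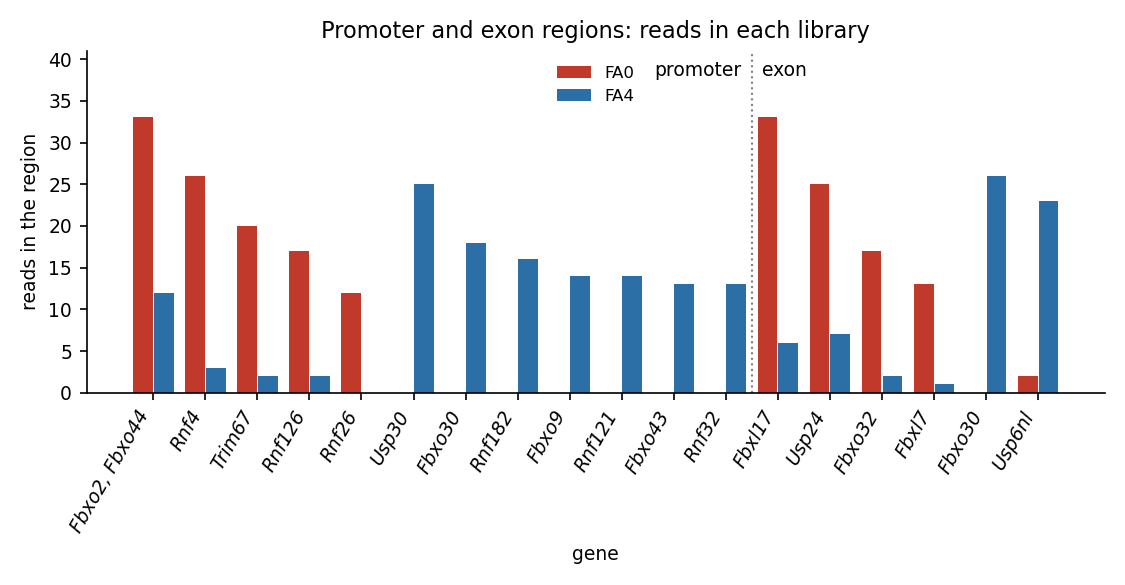
Reads of the FA0 library (left bar of each pair) and of the FA4 library (right bar) in the 12 promoter regions and, right of the dotted line, the 6 exon regions, 1 library per condition with no error bars. The 7 FA4-higher promoter regions have no FA0 bar because they held 0 FA0 reads, and the Fbxo2 and Fbxo44 pair share 1 region with 33 FA0 and 12 FA4 reads.

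The 6 exon regions had 4 in the FA0-higher and 2 in the FA4-higher direction. Over all exon regions, 213 of the 267 FA0-higher and 44 of the 160 FA4-higher ones passed the exact test. Fbxl17, which encodes the F-box protein that removes wrongly paired BTB domain proteins, had the strongest, with 33 FA0 reads and 6 FA4 reads (chr17:63049961-63051320, ratio 7.33, 3.03 to 21.4, exact p = 1.04e-07), 449940 bp into the gene from its start. Usp24, a large deubiquitinase, had 25 FA0 reads and 7 FA4 reads (ratio 4.76, 2.00 to 13). Fbxo32, also called atrogin-1 and a marker of muscle wasting, had 17 FA0 reads and 2 FA4 reads (ratio 11.3, 2.69 to 101). These 3 passed, whereas Fbxl7, whose product targets Aurora A in human cells, did not with 13 FA0 reads and 1 FA4 read (exact p = 0.000139). Fbxo30 again was in the opposite direction, with 0 FA0 reads and 26 FA4 reads in an exon (chr10:11289661-11291720), at least 6.50-fold lower in FA0 (exact p = 6.46e-07). That was the smallest p of the FA4-higher regions of these families. Usp6nl had 2 FA0 reads and 23 FA4 reads, a ratio of 0.116 (0.0133 to 0.469) that did not pass (exact p = 0.000187).

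Among all 173 regions, FA0 had the higher count in 74 and FA4 in 99. The FA0-higher share was 42.8% (35.3% to 50.5%, Clopper-Pearson), against 38.9% of all 19817 listed regions, and the interval holds the share of all regions. The exact test passed 53 of the 74 FA0-higher regions (71.6%), against 74.6% of all FA0-higher regions, and 28 of the 99 FA4-higher regions (28.3%), against 26.2% of all FA4-higher regions. Ubiquitin genes therefore had about the mix of directions of the whole list. Among the regions that passed, 65.4% were higher in FA0 (54.0% to 75.7%), against 64.4% of all that passed, so the majority direction turned with the test for the members as it did for the list as a whole. In normalized counts 1 FA0 read is worth 1.33 FA4 reads, and against 0 reads 11 FA0 reads passed the exact test, whereas 17 FA4 reads were needed.

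Reads were few in most member regions. The FA0-higher regions had 10 to 41 FA0 reads (median 16), and the FA4-higher regions 13 to 33 FA4 reads (median 15). In the lower library, 27 of the 74 FA0-higher regions had 0 FA4 reads (36.5%, against 32.4% of all FA0-higher regions), and 78 of the 99 FA4-higher regions had 0 FA0 reads (78.8%, against 81.1%). The region with the most reads was the FA0-higher one near Rnf223, an RNF gene of little known function, with 41 FA0 reads and 19 FA4 reads, and its exact p of 0.000113 did not pass. FA0-higher regions were shorter, with a median of 760 bp, than FA4-higher regions with 1160 bp. Over all listed regions the medians were 760 bp for those higher in FA0 and 1080 bp for those higher in FA4. The distance to the assigned start site had a median of 19190 bp in the FA0-higher member regions and 29580 bp in the FA4-higher ones. Over all listed regions these medians were larger, 28110 bp (FA0-higher) and 63220 bp (FA4-higher).

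**Figure D2:**
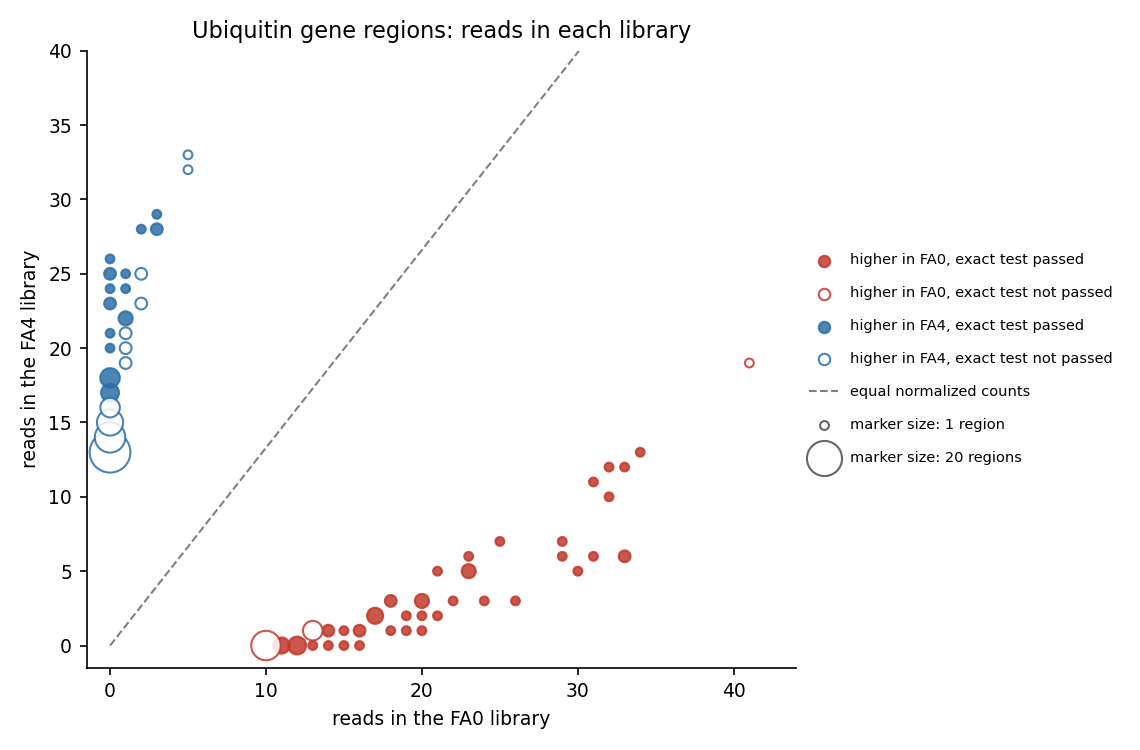
Each of the 173 member regions by its reads in the FA0 library (x axis) and in the FA4 library (y axis), 1 library each. Marker area grows with the number of regions at the same pair of counts, filled markers passed the exact test, and the dashed line marks equal normalized counts. FA4-higher regions lie close to the y axis at 0 to 5 FA0 reads, whereas FA0-higher regions hold up to 19 FA4 reads.

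Other FA0-higher regions with a small p lay in introns, upstream of genes and in intergenic sequence. Rnf149, a membrane-anchored RING ligase, had 33 FA0 reads and 6 FA4 reads in an intergenic region 36673 bp before its start (chr1:39613261-39614780, ratio 7.33, 3.03 to 21.4, exact p = 1.04e-07), the same counts as the Fbxl17 exon. Usp2, a deubiquitinase that stabilises MDM2 and cyclin D1 in human cells, had 30 FA0 reads and 5 FA4 reads 5859 bp upstream of its start (chr9:44078621-44079500, ratio 8.0, 3.07 to 26.4, exact p = 2.9e-07). Both sat beside a region of the opposite direction, 7100 bp away for Rnf149 and 6340 bp away for Usp2. At Usp2 that neighbour was its own second region with 0 FA0 reads and 14 FA4 reads. Usp6nl had 31 FA0 reads and 6 FA4 reads in an intergenic region (ratio 6.89, 2.83 to 20.2, exact p = 3.97e-07). Fbxo10, the F-box gene whose product targets BCL2 in human cells, was low in FA4 at both of its regions, with 20 FA0 reads and 1 FA4 read in an intron (exact p = 5.44e-07) and 19 FA0 reads and 1 FA4 read upstream (exact p = 1.21e-06). Fbxl18, an F-box gene, had 24 FA0 reads and 3 FA4 reads in an intron (ratio 10.7, 3.24 to 55.3, exact p = 1.16e-06).

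The FA4-higher regions with the smallest p were empty or nearly empty in FA0. Trim44, a TRIM protein that lacks a RING domain, had 0 FA0 reads and 25 FA4 reads in an intron (chr2:102321961-102324220), at least 6.25-fold lower in FA0 (exact p = 1.2e-06). Fbxw26, of a rodent F-box cluster on chromosome 9, had 0 FA0 reads and 24 FA4 reads upstream, at least 6.0-fold lower in FA0 (exact p = 2.24e-06). Its close relatives in the cluster, Fbxw15 and Fbxw24, had 1 listed region each, in opposite directions, and the assignment of reads among such copies is uncertain. Trim8, which acts in cytokine signalling, had 0 FA0 reads and 23 FA4 reads in intergenic sequence (exact p = 4.23e-06). Usp31 had 1 FA0 read and 25 FA4 reads in an intron, a ratio of 0.0533 (0.00130 to 0.326, exact p = 1.17e-05), and a second intron region with 10 FA0 reads and 0 FA4 reads that did not pass (exact p = 0.000209). Rnf115, a RING ligase also called BCA2, had 0 FA0 reads and 20 FA4 reads in an intron (exact p = 1.5e-05).

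By family, the Usp genes had 23 FA0-higher and 18 FA4-higher regions at 20 symbols (56.1% higher in FA0, 39.8% to 71.5%). Usp6nl, which is not a deubiquitinase, gave 2 of these FA0-higher and 1 of these FA4-higher regions. The Rnf genes had 21 FA0-higher and 19 FA4-higher regions at 29 symbols (52.5%, 36.1% to 68.5%). The Trim genes and the F-box families had more FA4-higher than FA0-higher regions, as did the whole list. Trim had 11 FA0-higher and 20 FA4-higher regions at 18 symbols (35.5%, 19.2% to 54.6%). Fbxo had 9 FA0-higher and 23 FA4-higher regions (28.1%, 13.8% to 46.8%). Fbxl had 7 FA0-higher and 12 FA4-higher (36.8%, 16.3% to 61.6%), and Fbxw had 3 FA0-higher and 7 FA4-higher (30%, 6.67% to 65.3%). The Usp interval began just above the 38.9% of all listed regions, and the other 5 intervals held that value. A Usp interval without Usp6nl was not computed. The intervals are not adjusted for 6 families, all 6 overlap, and the differences between families were not tested. The exact test passed 17 FA0-higher and 7 FA4-higher regions of Usp, 15 FA0-higher and 4 FA4-higher of Rnf, and 7 in each direction of Trim. It passed 7 FA0-higher and 8 FA4-higher regions of Fbxo, 5 FA0-higher and 1 FA4-higher of Fbxl, and 2 FA0-higher and 1 FA4-higher of Fbxw. Over all listed regions it passed 74.6% of the FA0-higher and 26.2% of the FA4-higher ones. Of 280 protein-coding genes of these families in the RefSeq gene table (GRCm38.p6), 96 had a listed region (34.3%), against 35.7% of all protein-coding genes. The share was highest for Fbxo with 17 of 36 genes (47.2%) and lowest for Trim with 18 of 66 (27.3%). Rnf219, named Obi1 in that table, was counted neither among the 280 nor among the 96.

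**Figure D3:**
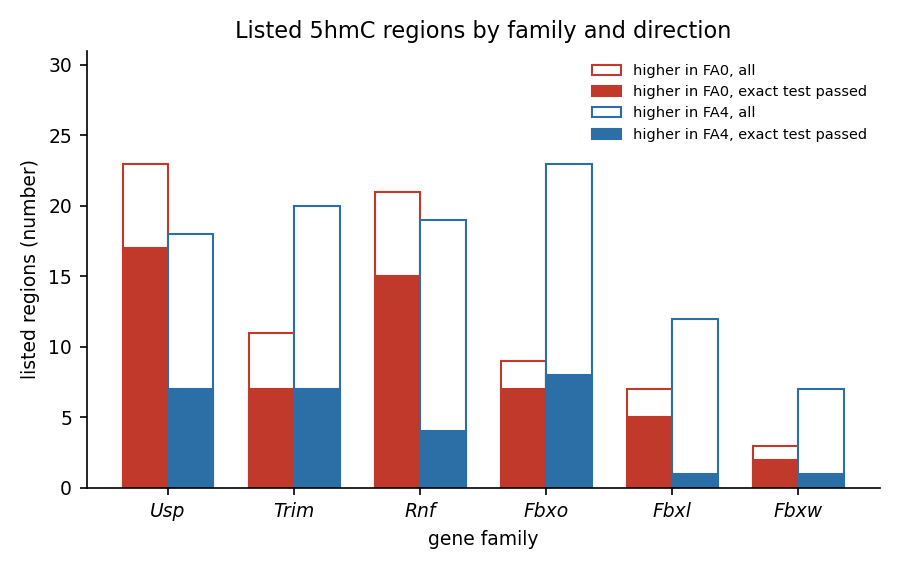
Number of listed regions (y axis) in each of the 6 gene families, higher in FA0 (left bar) or higher in FA4 (right bar), with the filled part passing the exact test. In Usp the bars stand at 23 FA0-higher and 18 FA4-higher regions with filled parts of 17 FA0-higher and 7 FA4-higher, whereas Fbxo has 9 FA0-higher and 23 FA4-higher regions.

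By position, 33 member regions inside a gene or its promoter were higher in FA0 and 34 in FA4 (49.3% higher in FA0, 36.8% to 61.8%), against 46.8% over all such regions. Outside genes, 41 were higher in FA0 and 65 in FA4 (38.7%, 29.4% to 48.6%), against 34.2%. Promoter regions were 41.7% FA0-higher in the members (15.2% to 72.3%, 12 regions), against 61.0% over all 975 promoter regions. Intergenic regions were 33.8% FA0-higher in the members (22.8% to 46.3%), against 30.8% over all. The intervals of all 5 classes held the value over all listed regions. Intergenic regions made up 39.3% of the member regions and 49.2% of all, and upstream regions made up 22.0% of the member regions and 13.3% of all. Upstream and intergenic regions were assigned by the tables to a gene nearby, and nothing in these data ties them to it in function.

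**Figure D4:**
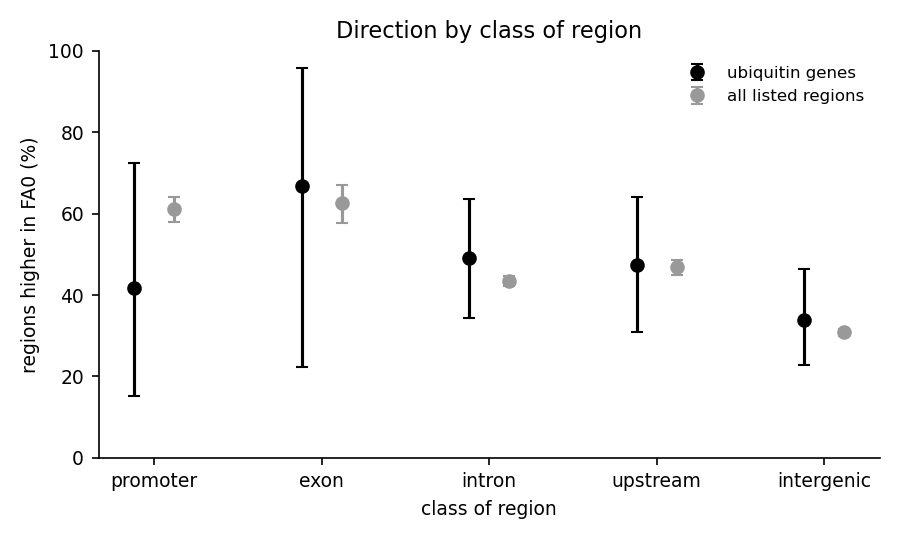
Share of regions that were higher in FA0 (y axis, percent) by class of region (x axis), for the ubiquitin genes (black) and all listed regions (grey), with 95% Clopper-Pearson intervals for counting error as bars. The member promoter value of 41.7% lies below the 61.0% of all promoter regions, with an interval of 15.2% to 72.3% from 12 regions.

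The 97 symbols divided into 36 whose regions were all higher in FA0, 38 whose regions were all higher in FA4, and 23 with regions of each direction. All 9293 symbols of the list divided into 3249, 3785 and 2259 in the same order. Most had few regions, since 55 had 1 and 17 had 3 or more, against 4987 and 2224 of all 9293 symbols. Of the 42 symbols with 2 or more regions, 23 had both directions (54.8%), against 52.5% of all such symbols. Genes with several regions of opposite direction were thus about as frequent here as elsewhere in the list. Among the 17 with 3 or more, 12 had both directions, Usp3 was FA0-higher throughout, and Usp38, Trim52, Rnf150 and Fbxo30 were FA4-higher throughout.

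Usp3, a deubiquitinase of histones H2A and H2B, had 4 FA0-higher regions and no other. The intron region had 14 FA0 reads and 1 FA4 read, and the 3 regions before the start had 10, 21 and 16 FA0 reads against 0, 2 and 0 FA4 reads. The last, 57395 bp before the start (chr9:66650181-66650840), was at least 7.11-fold higher in FA0 (exact p = 1.3e-06), and 3 of the 4 passed. Fbxo30 was its counterpart, with 0 FA0 reads in 3 regions and 18, 18 and 26 FA4 reads, all of which passed. Rnf150, a membrane RING gene, had 4 FA4-higher regions with 0 or 1 FA0 reads and 13 to 21 FA4 reads, none of which passed, and Trim52 had 3 with 0 FA0 reads and 13, 13 and 21 FA4 reads, of which 1 passed. Usp38, a deubiquitinase gene, had 3 with 0 or 1 FA0 reads and 13, 19 and 22 FA4 reads, of which 1 passed.

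Fbxo8, an F-box gene whose product carries a Sec7 domain, had the most regions of the set, with 1 FA0-higher and 7 FA4-higher. The FA0-higher region lay in an intron with 10 FA0 reads and 0 FA4 reads. The 7 FA4-higher regions lay beyond the gene, 47357 to 327087 bp from its start, with 0 to 5 FA0 reads and 13 to 32 FA4 reads, and 3 of them passed (0 FA0 reads in each, against 18, 23 and 17 FA4 reads). The strongest (chr8:56603201-56604960) was at least 5.75-fold lower in FA0 (exact p = 4.23e-06). All 8 regions fell in a 1-Mb window that held 1 FA0-higher and 16 FA4-higher listed regions of any gene. On chromosome 8 as a whole the members had 4 FA0-higher and 15 FA4-higher regions (21.1% higher in FA0), against 32.3% over all 1756 listed regions of that chromosome, and 14 of the 15 belonged to Fbxo8, Rnf150 and Usp38. Chromosome 4 had 13 FA0-higher and 7 FA4-higher member regions (65% higher in FA0), against 42.0% over all 1276 listed regions there. Chromosome 9 had 11 FA0-higher and 6 FA4-higher member regions (64.7%), against 43.9% over all 973. The 95% intervals of the members on these 3 chromosomes each held the share of all listed regions of that chromosome.

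Fbxl17 had 2 FA0-higher and 5 FA4-higher regions. The 2 FA0-higher regions lay in the gene, the exon region above and an intron region with 11 FA0 reads and 0 FA4 reads (exact p = 8.96e-05), whereas 4 of the 5 FA4-higher regions lay 61980 to 174030 bp before the start with 0 or 1 FA0 reads and 14 to 21 FA4 reads. The fifth, with 0 FA0 reads and 15 FA4 reads, lay in an intron 138740 bp from the start, between the FA0-higher regions. None of the FA4-higher regions of Fbxl17 passed. Usp24 had 2 FA0-higher regions that passed, the exon region above and another 296852 bp before the start with 23 FA0 reads and 6 FA4 reads, and 3 FA4-higher regions with 0 FA0 reads and 13 to 15 FA4 reads that did not. Fbxl7 had 1 FA0-higher exon region and 4 FA4-higher regions with 0 FA0 reads and 13 to 15 FA4 reads, none of which passed. Fbxo33, whose product binds the transcription factor YB-1, had 1 FA0-higher and 4 FA4-higher regions without a pass, all before its start, the farthest 1078347 bp away. Fbxl4, a mitochondrial F-box gene, had 2 FA0-higher regions with 12 and 10 FA0 reads against 0 FA4 reads in each, of which the first passed, and 1 FA4-higher region with 0 FA0 reads and 13 FA4 reads that did not.

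Usp7, the deubiquitinase of MDM2 and p53, had 29 FA0 reads and 7 FA4 reads in an intron (ratio 5.52, 2.37 to 14.9, exact p = 4.95e-06), and a second FA0-higher region before the gene with 17 FA0 reads and 2 FA4 reads. Trim2, a ligase for neurofilament light chain, had 2 FA0-higher regions that passed, with 16 and 18 FA0 reads against 1 and 3 FA4 reads, and an FA4-higher region with 0 FA0 reads and 13 FA4 reads. Trim24, a chromatin reader, had the opposite balance, with 3 FA4-higher regions before its start with 0 FA0 reads against 13, 16 and 13 FA4 reads, and 1 FA0-higher intron region with 10 FA0 reads and 0 FA4 reads, none of which passed. Rnf165, which enhances BMP signalling in motor neurons, had 2 FA0-higher regions close to its start, with 13 and 19 FA0 reads against 1 and 2 FA4 reads, and 1 FA4-higher region 61624 bp before it with 2 FA0 reads and 25 FA4 reads. Among the F-box genes with WD40 repeats, Fbxw7, the adaptor for cyclin E, MYC and Notch, had 2 FA4-higher regions with 0 FA0 reads against 13 and 15 FA4 reads, and Fbxw17 had 2 with 0 FA0 reads against 16 and 13 FA4 reads. Fbxw2 had an FA0-higher region with 14 FA0 reads and 0 FA4 reads (exact p = 7.06e-06) and an FA4-higher region with 5 FA0 reads and 33 FA4 reads, the highest FA4 count of the set, which did not pass (exact p = 0.000114).

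**Figure D5:**
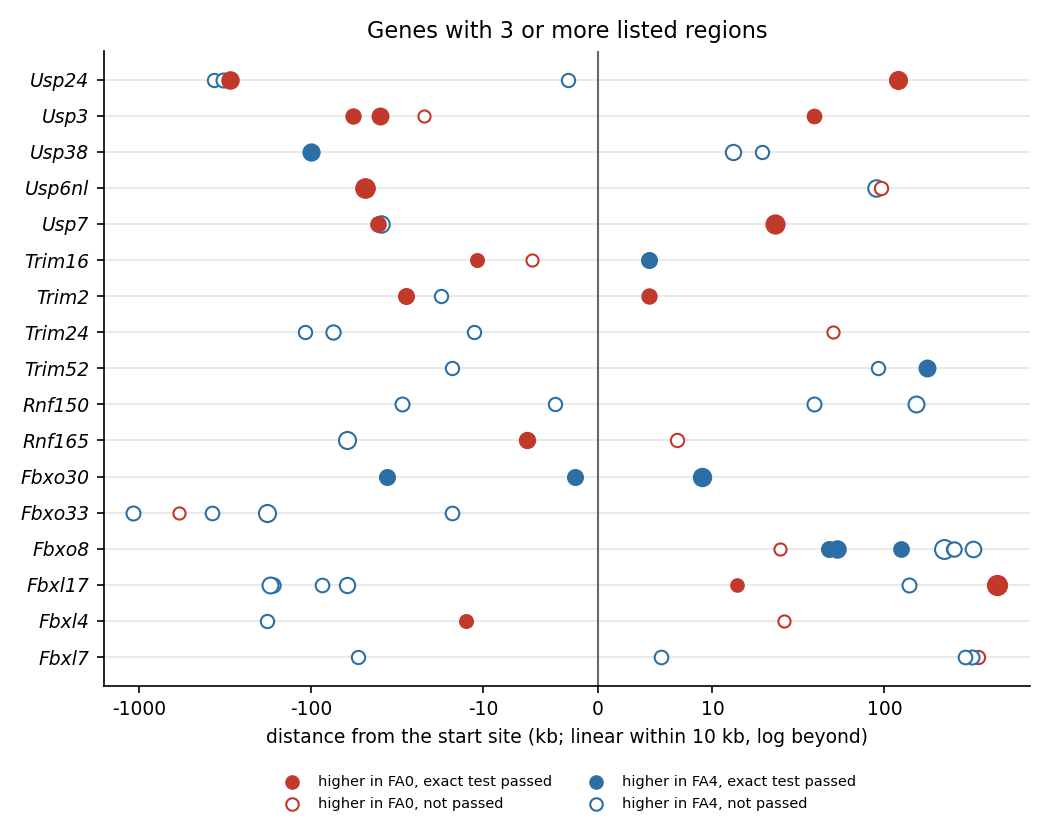
Listed regions of the 17 genes with 3 or more, by distance of the region from the assigned start site (x axis, kb, negative before the start; linear within 10 kb and log beyond). Red markers were higher in FA0 and blue in FA4, filled markers passed the exact test, and marker area grows with the reads of the higher library. Usp3 shows 4 red markers and Fbxo30 3 filled blue markers, whereas Fbxo8 has 7 blue markers beyond its start and 1 red.

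Regions of opposite direction lay side by side at 6 genes. Within 5000 bp of each other there were 6 such pairs, each pair assigned to a single gene, so that 12 of the 173 regions (6.94%, 3.63% to 11.8%) had an opposite neighbour this close, against 3.54% of all listed regions. The interval treats the 12 regions as independent although each pair enters both of its regions, so it is too narrow. At Rnf4 the promoter region with 26 FA0 reads and 3 FA4 reads was followed after 3420 bp by an intron region with 1 FA0 read and 24 FA4 reads (chr5:34340401-34343100, ratio 0.0556, 0.00135 to 0.341, exact p = 2.04e-05). At Usp30 the order along the gene was turned round. The promoter region with 0 FA0 reads and 25 FA4 reads was followed after 2000 bp by an intron region with 31 FA0 reads and 11 FA4 reads (chr5:114101941-114103160, ratio 3.76, 1.84 to 8.29, exact p = 6.24e-05). Both regions of these 2 pairs passed the exact test.

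At Usp7 a region with 17 FA0 reads and 2 FA4 reads lay 980 bp from a region with 2 FA0 reads and 23 FA4 reads, the closest pair. At Trim10, a TRIM gene of the major histocompatibility complex known from red cell development, a region with 23 FA0 reads and 5 FA4 reads lay 1140 bp from a region with 1 FA0 read and 20 FA4 reads. In both pairs the FA0-higher region passed and the FA4-higher region did not. At Fbxl13 the FA0-higher region had 12 FA0 reads and 0 FA4 reads and passed, and the FA4-higher region had 0 FA0 reads and 15 FA4 reads and did not. Neither region passed at Trim32, a ligase of muscle and brain, where 10 FA0 reads and 0 FA4 reads lay beside 0 FA0 reads and 13 FA4 reads. Across larger distances the surroundings followed the list. Of the FA4-higher member regions, 66 of 99 (66.7%, 56.5% to 75.8%) lay in 1-Mb windows whose other listed regions were mostly FA4-higher, against 71.8% over all, and of the FA0-higher ones 34 of 74 (46.0%, 34.3% to 57.9%) lay in mostly FA0-higher windows, against 50.1%.

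Genes of the ubiquitin system without these 6 family names were listed by role for comparison. The 254 symbols include older and newer names of some genes. Listed regions were found at 100 of them (39.4%), against 35.7% of all protein-coding genes. Of these regions 68 were FA0-higher and 129 FA4-higher (34.5% higher in FA0, 27.9% to 41.6%), against 38.9% of all listed regions. The exact test passed 50 of the FA0-higher regions (73.5%, against 74.6% of all FA0-higher regions) and 27 of the FA4-higher regions (20.9%, against 26.2% of all FA4-higher regions). The interval of the FA0-higher share overlaps that of the 6 families, and the intervals of the 7 classes with a listed region each held 38.9%. Conjugating enzymes had 6 FA0-higher and 19 FA4-higher regions at 13 of 34 symbols, and HECT ligases had 9 FA0-higher and 21 FA4-higher at 15 of 26. The class of BTB-Kelch adaptors of cullin 3 ligases had 14 FA0-higher and 32 FA4-higher regions at 24 of 50 symbols. It included Spop (0 FA0-higher and 3 FA4-higher) and Spopl (0 and 4), BTB genes without Kelch repeats. The class of cullins and SCF parts had 7 FA0-higher and 6 FA4-higher regions at 8 of 16 symbols. It included 3 F-box genes with other names, Btrc (1 FA0-higher and 3 FA4-higher), Skp2 (0 and 1) and Ccnf (1 and 0). Its balance is therefore not that of the cullins and their core partners alone. The class of other deubiquitinases had 11 FA0-higher and 15 FA4-higher regions at 12 of 36 symbols. Of these FA0-higher regions, 3 were at Psmd7, a proteasome subunit gene that is not a deubiquitinase. Other RING and U-box ligases had 19 FA0-higher and 30 FA4-higher regions at 23 of 70 symbols. Subunits of the anaphase-promoting complex had 2 FA0-higher and 6 FA4-higher at 5 of 14. None of the 8 activating enzyme symbols had a listed region. The gene with the most regions was Park2, which encodes the mitophagy ligase parkin, with 5 FA0-higher and 6 FA4-higher regions, 5 of which passed.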

How the data were processed

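hMeDIP-seq was performed on genomic DNA of Sv129 mESCs. Build mm10 and the tools Bowtie2 2.2.4 and cutadapt 1.9.1 stand in the submitters' processing notes, and the caller of differential regions is not given in the sources used here. Labels and methods differ in the immunoprecipitation kit, the DNA extraction kit and the fragment size, which was not settled. The FA0 input was not used here.

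The authors deposited 4 tables with a normalized count, a signal scaled by 1 factor per library, and with columns of their own comparison (fold, p-value, FDR) that were not used. A further 8 columns of average signal were not used. Counts divided by the factor lay within 0.0292 reads of whole numbers. Of the 241 member rows (region and transcript), each region was counted once per symbol. Shares have Clopper-Pearson intervals and ratios exact conditional binomial intervals at the 95% level. The exact binomial test was run on all 19817 regions, and its p was not adjusted. Calculations were tested on simulated data (scipy 1.17.1, pandas 2.3.3, numpy 2.4.6 and matplotlib 3.10.9 under Python 3.11.15). Promoter windows were matched to RefSeq by symbol.

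Named genes (40) were those with a promoter or exon region, the 8 regions per direction with the smallest exact p, the 3 symbols per family with the most regions, and those with 2 or more regions of each direction. Further genes (Rnf223, Trim10, Fbxl13, Trim32, Usp38, Fbxw15, Fbxw24, Park2, Btrc, Skp2, Ccnf, Spop, Spopl and Psmd7) were named after their values were seen. The members and gene lists were chosen with earlier results of these data known. Alternatives were other scalings, thresholds, count filters, units counted, members and chromosomes. The exact test as the rule for direction, and all listed regions under each setting, were added after seeing the data.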

Additional observations from a re-analysis of the deposited data

How the results depend on the processing

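The direction of the member regions depended on scaling and threshold. Median regions held 16 FA0 reads (FA0-higher) or 15 FA4 reads (FA4-higher) in the higher library, and often 0 in the other. Settings could remove listed regions but not add any. The FA0-higher share of 42.8% became 17.4% with unscaled reads (12 FA0-higher and 57 FA4-higher regions left), 75% at an exact p under 1e-05 (18 and 6), 69.6% with at least 20 normalized counts (32 and 14) and 65.4% with the exact test at 1e-04. Over all listed regions these settings gave 9.67%, 67.4%, 72.1% and 64.4%, so the members moved with the list. The 53 FA0-higher regions that passed became 12 with unscaled reads, 21 with FA4 scaled up by 25%, 18 at 1e-05, 31 with at least 20 normalized counts and 80 when table rows were counted. The 28 FA4-higher regions that passed became 57, 57, 6 and 10 under the first 4 of these, 7 with FA0 scaled up by 25% and 18 without intergenic regions.

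With unscaled reads the FA0-higher share became 25% for Usp, 0% for Trim, 26.7% for Rnf, 13.3% for Fbxo, 0% for Fbxw, 10.5% for introns, 27.3% for upstream regions, 15.6% for intergenic regions and 6.85% for the other ubiquitin genes. At 1e-05 it became 83.3% for Usp, 100% for Rnf, 60% for Fbxo, 100% for Fbxl and 61.5% for the other ubiquitin genes. With at least 20 normalized counts it became 72.7% for Usp, 71.4% for Trim, 83.3% for Rnf, 60% for Fbxo and 66.7% for Fbxl. The other ubiquitin genes moved to 26.3% with FA4 scaled up by 25%. Symbols with FA0-higher regions alone fell to 7 with unscaled reads, those with FA4-higher regions alone to 20 with regions that passed the exact test, and those with both directions to 15 without intergenic regions, 3 with regions that passed and 3 with unscaled reads. The other 61 of 101 alternatives stayed within the interval, or within 1.5 times the count, of the value reported. Among them were the member share without chromosomes 8 and 1, with the 5 excluded symbols added back, and without Fbxw and Trim symbols taken by name as tandem copies. Usp17lb and Usp17le, also copies of a family, stayed in under that last setting. No paired analysis was possible because each condition had 1 library. Leaving out a library was not possible for the same reason.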
